A study of Mus musculus with 4 samples.

Results

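Elastic fibres are the extensible part of the extracellular matrix, and 10 genes of their assembly are described here: Eln, Fbn1, Fbn2, Mfap4, Emilin1, Fbln5, Efemp2, Ltbp4, Lox and Loxl1. They were chosen by gene symbol as members of the pathway, with earlier results of these data known. Each was found in its own row of a deposited table of 22802 gene loci. The table holds RNA sequencing of EGFP-expressing interstitial cells from testes of C57BL/6J mice at postnatal day 10, sorted into 2 laminin-positive and 2 laminin-negative samples. All samples carried the mFLE-Cre and CAG-CAT-EGFP transgenes. CAG-CAT-EGFP is a reporter that Cre recombinase switches on, so EGFP marks cells in which Cre is or was active, and their descendants. The sequence that drives this Cre is not spelled out in the sources used here. The laminin-positive cells are called EGFP-positive throughout, whereas the laminin-negative cells are called EGFP-positive in the sample labels and weakly EGFP-expressing in the design text, so laminin staining and EGFP level may differ together. No source used here says whether the 2 samples of each population stem from different animals, so the p-values rest on a spread between samples that may be purely technical.

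An elastic fibre is built on a scaffold of microfibrils, whose backbone is made of fibrillins. Tropoelastin, the secreted product of Eln, is brought to that scaffold by fibulins and by latent TGF-beta binding protein 4, and is then crosslinked through its lysines by copper-dependent lysyl oxidases. Such fibres are best known from arteries, lung and skin, and they also occur in vessel walls of the testis and, in man, in the wall of the seminiferous tubule.

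The sorted cells differed widely in their markers. Levels are given in FPKM, a fragment number that is divided by transcript length and by the mapped fragments of a library, so genes can be set side by side. All 7 smooth muscle and peritubular myoid markers were higher in laminin-positive cells and summed to 5476 to 5523 FPKM there, against 183 to 197 FPKM in laminin-negative cells. All 5 pericyte markers were higher as well (312 to 318 against 55.0 to 56.9 FPKM in sum). All 6 Leydig cell markers were lower in laminin-positive cells (161 to 207 against 4568 to 4824 FPKM). Most of that sum came from a row that Insl3 shares with Jak3, and the other 5 summed to 73.6 to 80.2 FPKM in laminin-positive and 744 to 746 FPKM in laminin-negative cells. All 6 markers of connective tissue fibroblasts were lower as well (289 to 315 against 3077 to 3497 FPKM). Macrophage markers were higher in 5 of 5 tested cases but low in sum (28.2 to 31.5 against 3.84 to 6.44 FPKM), Sertoli cell markers in 3 of 5 (28.1 to 31.4 against 12.7 to 14.4 FPKM) and germ cell markers in 5 of 6, where the lower one was Kit (2.11 ± 0.388 against 38.0 ± 0.896 FPKM, SD, n = 2) and the sum was no higher than 22.6 against 45.9 FPKM. Kit made up most of the germ cell sum in laminin-negative cells, and the other 5 germ cell markers were each higher in laminin-positive cells. The 6 endothelial markers, with sums of 14.0 to 14.9 against 169 to 177 FPKM, were split. Cdh5 was lower in laminin-positive cells (9.57 ± 0.453 against 169 ± 5.58 FPKM) and made up 66.1% to 66.2% of the summed markers there, against 97.7% to 97.8% in laminin-negative cells. Tek was lower too (0.731 ± 0.211 against 2.82 ± 0.0747 FPKM), whereas Emcn was higher (1.87 and 2.32 against 0.585 and 0.90 FPKM). Pecam1, Kdr and Cldn5 stayed below the filter and were not tested, at 0.411 to 1.14 FPKM in laminin-positive and 0.0437 to 0.209 FPKM in laminin-negative libraries, with no overlap for any of the 3. Besides Tek and Emcn, 2 fibroblast, 3 macrophage, 2 Sertoli and 2 germ cell markers reached 1 FPKM in 1 population only, so the filter on low values fixed the direction of their calls. No marker was at 0 in all libraries. For comparison, 26.6% of all tested genes were called higher and 26.3% lower, and the populations did not overlap for 77.2%. The part of these cells in the differences below was not tested, and in bulk samples a different share of cells of a type and a different amount of RNA per cell cannot be told apart.

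The fibulin genes Fbln5 and Efemp2 encode related proteins that both serve elastin deposition, yet their transcripts differed in opposite directions between the populations. The bases before the starts of their deposited loci are therefore shown. In the RefSeq promoter table on GRCm38.p6, 5 of the 10 genes have an entry that is used here, namely Fbn1, Fbln5, Efemp2, Ltbp4 and Emilin1. The windows before Fbn1 and Emilin1 lie wholly within annotated exons and are not printed. Each sequence below reads toward the start of the deposited locus on the strand of its gene and holds no exon of GENCODE M21. That of Efemp2 lies inside the annotated span of its gene, past the annotated start at 5473954. That of Fbln5 lies before the annotated start of its gene. Capitals mark the GC box GGGCGG on either strand, a letter pattern of many promoters.
Fbln5, chr12:101819120-101819369, minus strand: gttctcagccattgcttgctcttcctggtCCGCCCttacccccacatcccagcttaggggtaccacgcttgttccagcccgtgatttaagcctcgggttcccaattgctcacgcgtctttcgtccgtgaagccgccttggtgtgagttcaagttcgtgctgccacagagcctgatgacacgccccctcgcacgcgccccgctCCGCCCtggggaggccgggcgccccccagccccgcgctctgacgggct
Efemp2, chr19:5474454-5474687, plus strand: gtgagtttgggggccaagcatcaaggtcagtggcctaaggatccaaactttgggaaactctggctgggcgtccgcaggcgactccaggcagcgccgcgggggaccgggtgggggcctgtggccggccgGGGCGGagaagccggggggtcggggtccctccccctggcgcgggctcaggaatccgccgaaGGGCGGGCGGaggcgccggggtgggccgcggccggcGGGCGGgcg
The Fbln5 window of 250 bases held 2 GC boxes at 65.2% G and C, and the Efemp2 window of 234 bases held 4, with a pair of them overlapping, at 75.6% G and C. A GC box was present in 32.7% and 32.0% of the 32851 promoter windows of these lengths. Neither window held TATAAA (present in 12.4% and 11.6%), CATTCC, the MCAT element (12.6% and 11.9%), or the CArG box that serum response factor binds (1.47% and 1.38%), with both strands searched. The Ltbp4 window, which is not printed, had 170 bases outside exons with 2 GC boxes, at 60.6% G and C. A GC box was present in 19.5% of windows of that length. The Ltbp4 window held no TATAAA, MCAT element or CArG box. These matches describe letters only.

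All 10 genes passed the filter on low values, with at least 21.3 FPKM in each library. In limma's moderated test on log2(FPKM + 1), adjusted by Benjamini-Hochberg over 12348 tested genes, 8 of the 10 were higher in laminin-positive cells and 2 were lower. Over all tested genes the call rate was 52.9%, with 26.6% higher and 26.3% lower, so a call by itself says little about a gene here. A log2 difference of at least 1 upward was reached by 5 of the 10, namely Eln, Emilin1, Fbln5, Lox and Fbn2, where the rate over all tested genes was 7.29%. The 2 populations did not overlap for any of the 10, against 77.2% of all tested genes. The median log2 difference was 0.89 over the 10 and 0.009 over all tested genes. Microfibril and family relatives, which are listed apart below, had a median of −0.19. Since the 10 were chosen with earlier results of these data known, these rates and medians describe them and test nothing. With no variance shared across genes, which leaves 2 residual degrees of freedom, limma called Eln, Emilin1, Fbln5 and Lox, and the rate over all tested genes was 20.7%.

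**Figure D1:**
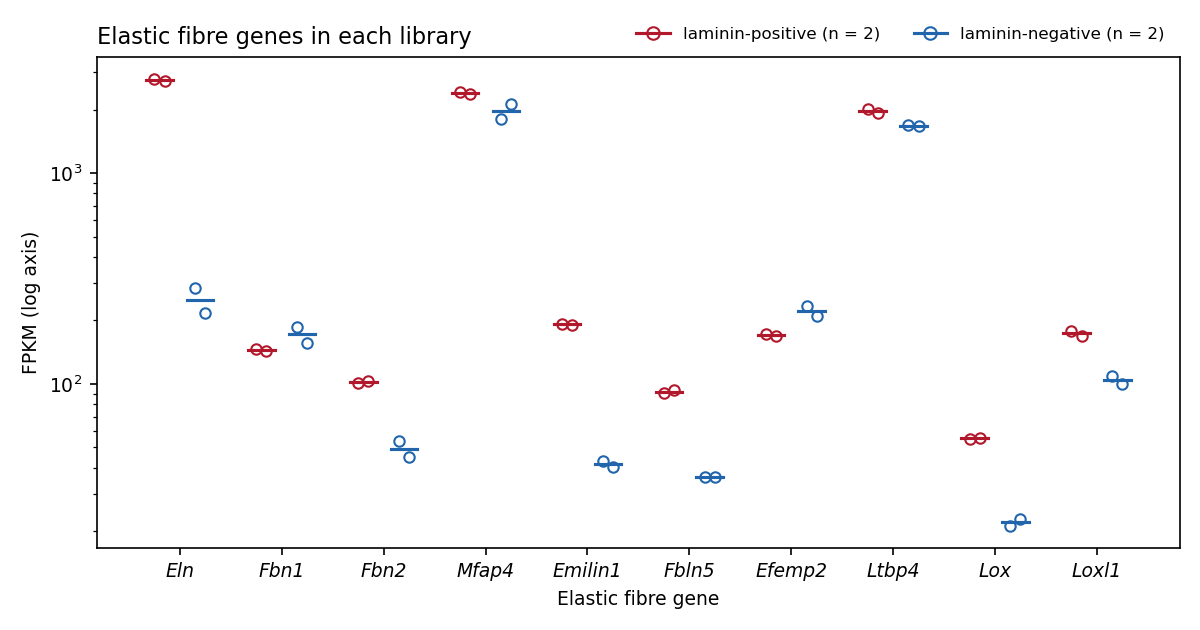
FPKM of the 10 elastic fibre genes on a log axis. Open circles are single libraries and short lines are means of 2 libraries, with laminin-positive in red and laminin-negative in blue. Eln averaged 2757 FPKM in laminin-positive cells, above Mfap4 and Ltbp4 (2395 and 1973 FPKM), and 251 FPKM in laminin-negative cells, below both.

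Elastin differed most. Eln (chromosome 5, 134702593 to 134747323, GRCm38, minus strand) had 2785 and 2730.0 FPKM in the laminin-positive libraries and 285 and 216 FPKM in the laminin-negative libraries. Its mean of 2757 ± 38.7 FPKM (SD, n = 2) in laminin-positive cells was 11.0-fold that of 251 ± 49.1 FPKM in laminin-negative cells (log2 difference 3.47, SE 0.12, limma adjusted p = 2.05e-09). Elastin was the gene of rank 9 by FPKM in both laminin-positive libraries, against rank 260 and 349 in the laminin-negative libraries, of 22802 loci. The laminin-negative libraries differed more from each other for Eln than the laminin-positive libraries did, and the gap between the populations was far larger than either spread. Leaving out any single library kept the log2 difference between 3.27 and 3.67.

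The genes whose levels over the 4 libraries were nearest to those of Eln were, by Euclidean distance on log2(FPKM + 1), Myl9 (0.32), Lamc3 (1.62), Myl6 (1.72), Acta2 (2.05) and Cd81 (2.16). Myl9, a regulatory myosin light chain of smooth muscle, had 2738 and 2822 FPKM in laminin-positive and 247 and 254 FPKM in laminin-negative libraries, each close to the value of Eln. The next nearest, the laminin gamma chain gene Lamc3, had 1424 and 1374 FPKM in laminin-positive and 377 and 363 FPKM in laminin-negative libraries. This likeness is a description that rests on 4 libraries in 2 populations.

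The fibrillins, which form the microfibril backbone, were split. Fbn2 (chromosome 18, 58008623 to 58210487), the fibrillin best known from developing tissue, had 101 and 103 FPKM in laminin-positive and 53.5 and 44.8 FPKM in laminin-negative libraries, a 2.08-fold higher mean (log2 difference 1.05, SE 0.09, limma adjusted p = 2.94e-06). Fbn1 (chromosome 2, 125300594 to 125507993), the gene mutated in Marfan syndrome in man, had 146 and 143 FPKM in laminin-positive and 186 and 157 FPKM in laminin-negative libraries. Both of its laminin-positive values were lower, but the nearest values of the populations lay close together. Its fall (log2 difference −0.24, SE 0.09, limma adjusted p = 0.0385) was not called without laminin-positive replicate 1 (0.0662), laminin-positive replicate 2 (0.118) or laminin-negative replicate 1 (0.208), nor when libraries were set to equal FPKM sums (0.290) or quantile-normalized (0.249), nor without the filter on low values (0.101), the intensity trend (0.0879) or variance shared across genes (0.284). Over the alternatives its adjusted p ran from 0.00154 to 0.290. The ratio of Fbn2 to Fbn1 was 0.693 and 0.720 in laminin-positive and 0.288 and 0.285 in laminin-negative libraries, so Fbn1 remained the more abundant fibrillin in all 4.

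Emilin1 and Mfap4, which encode proteins on microfibrils or at their border with elastin, were both higher, to very different degrees. Emilin1 (chromosome 5, 30913402 to 30921277), which encodes a glycoprotein of the elastin and microfibril interface, had 192 and 191 FPKM in laminin-positive and 43.0 and 40.3 FPKM in laminin-negative libraries. Its mean differed 4.60-fold (log2 difference 2.17, SE 0.07, limma adjusted p = 1.63e-09), the second largest difference among the 10. Mfap4 (chromosome 11, 61485431 to 61488900), whose product binds both fibrillin and tropoelastin, was abundant in all libraries, with 2432 and 2358 FPKM in laminin-positive and 1808 and 2118 FPKM in laminin-negative cells. The spread between the laminin-negative libraries was larger than the gap between the nearest values of the populations. Mfap4 rose by 0.29 on the log2 scale (SE 0.10, limma adjusted p = 0.0309). It missed the threshold once laminin-positive replicate 1 (0.180), laminin-positive replicate 2 (0.115) or laminin-negative replicate 1 (0.0673) was left out, as well as without the filter on low values (0.140), with no variance shared across genes (0.218) and with the replicate number as a block (0.0767). It was thus called under 5 of 11 alternatives. Its adjusted p ran from 3.63e-05 to 0.218 over the alternatives, and quantile normalization gave a larger log2 difference of 0.62.

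Among the fibulins and their partner, Fbln5 rose and Efemp2 fell. Fbln5 (chromosome 12, 101746565 to 101819055) encodes fibulin-5, which binds tropoelastin and cell surface integrins. It had 90.3 and 93.6 FPKM in laminin-positive and 36.2 and 36.2 FPKM in laminin-negative libraries, a 2.54-fold higher mean (log2 difference 1.32, SE 0.07, limma adjusted p = 7.54e-08). Efemp2 (chromosome 19, 5473954 to 5482517) encodes fibulin-4, which binds lysyl oxidase and is required for elastic fibres in mice. It had 172 and 169 FPKM in laminin-positive and 233 and 210.1 FPKM in laminin-negative libraries (log2 difference −0.37, SE 0.08, limma adjusted p = 0.00197). The laminin-positive libraries were thus higher for one fibulin and lower for the other. The ratio of Fbln5 to Efemp2 was 0.523 and 0.553 in laminin-positive and 0.156 and 0.173 in laminin-negative libraries. With 2 libraries a population, the smallest p of an exact permutation test is 0.33, and the ratios were not tested.

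Ltbp4 (chromosome 7, 27305136 to 27337692) encodes the latent TGF-beta binding protein that aids the transfer of fibulin-5 and elastin to microfibrils. It had 2019 and 1927 FPKM in laminin-positive and 1686 and 1666 FPKM in laminin-negative libraries. It was thus abundant in both populations and 1.18-fold higher on average in the laminin-positive one (limma adjusted p = 0.0385, log2 difference 0.23, SE 0.08). It missed the threshold once laminin-positive replicate 1 (0.318) or laminin-positive replicate 2 (0.172) was left out, as well as without the filter (0.132), without the intensity trend (0.0503), with no shared variance (0.0716) and with the replicate block (0.110). Its adjusted p ran from 6.93e-05 to 0.318 over the alternatives, and quantile normalization gave a larger log2 difference of 0.57.

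Both crosslinking enzymes rose. Lox (chromosome 18, 52516067 to 52529867), the founding lysyl oxidase, had 54.9 and 55.6 FPKM in laminin-positive and 21.3 and 22.9 FPKM in laminin-negative libraries, a 2.50-fold higher mean (log2 difference 1.28, SE 0.08, limma adjusted p = 1.69e-07). Loxl1 (chromosome 9, 58287738 to 58313186), the relative needed to renew elastic fibres in adult mice, had 179 and 169 FPKM in laminin-positive and 109 and 100.3 FPKM in laminin-negative libraries (1.66-fold, log2 difference 0.73, SE 0.08, limma adjusted p = 1.47e-05). Loxl1 was the more abundant enzyme in every library, with a ratio to Lox of 3.27 and 3.03 in laminin-positive and 5.13 and 4.38 in laminin-negative cells.

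**Figure D2:**
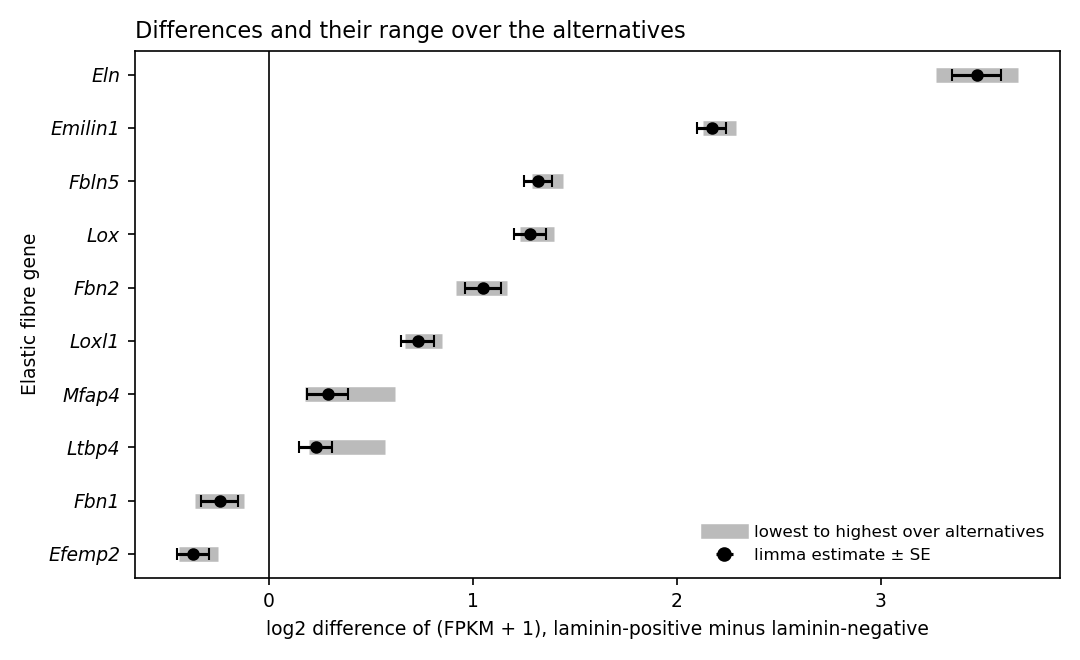
Differences in log2(FPKM + 1), laminin-positive minus laminin-negative, for the 10 genes. Points are limma estimates with their SE, and grey bars run from the lowest to the highest estimate over 11 alternative settings. Eln (3.27 to 3.67) and Emilin1 (2.13 to 2.29) stand apart from the rest, and no bar crosses 0. The settings without the filter, the intensity trend or shared variance, and with the replicate block, keep the main estimate by design.

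The 10 genes together summed to 8171 and 7939 FPKM in laminin-positive and 4461 and 4612 FPKM in laminin-negative libraries, which was 1.62% and 1.62% of all FPKM in laminin-positive and 0.838% and 0.840% in laminin-negative libraries. The summed level was 1.78-fold higher in laminin-positive cells. Elastin made up 34.1% and 34.4% of that sum in laminin-positive and 6.40% and 4.69% in laminin-negative libraries. Eln had 1.15 and 1.16 FPKM per FPKM of Mfap4 in laminin-positive libraries, against 0.158 and 0.102 in laminin-negative libraries. Shares add up to a fixed whole, so the large share of Eln lowers those of genes whose own level was higher, such as Mfap4 (29.8% and 29.7% in laminin-positive, 40.5% and 45.9% in laminin-negative libraries) and Ltbp4 (24.7% and 24.3% against 37.8% and 36.1%).

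**Figure D3:**
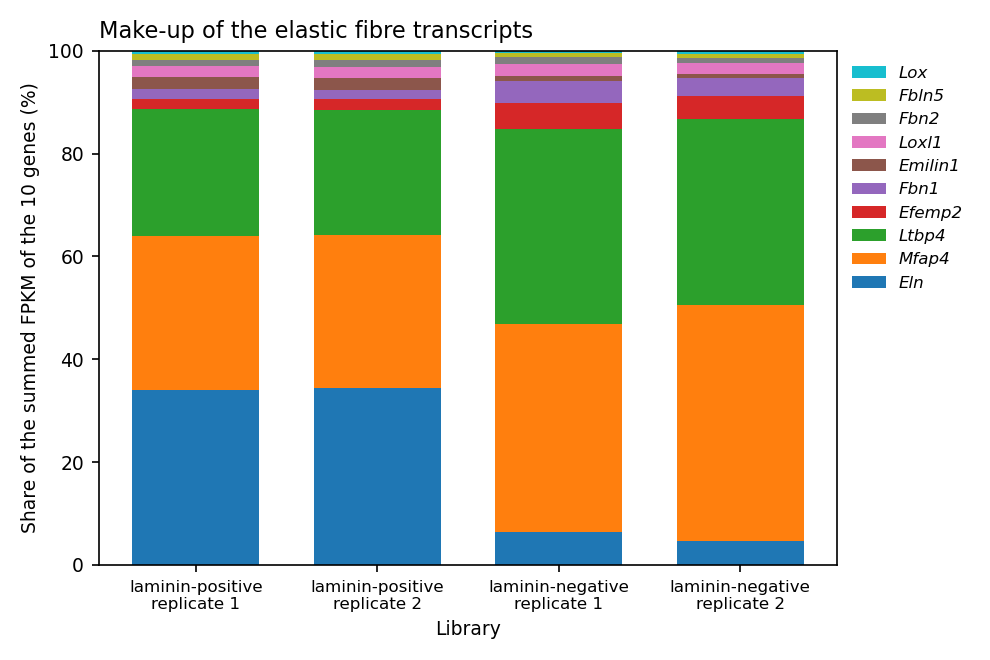
Share of each gene, in percent, in the summed FPKM of the 10 elastic fibre genes, for each library. Eln (blue, at the base) holds 34.1% and 34.4% in the laminin-positive libraries and 6.40% and 4.69% in the laminin-negative libraries, and Mfap4 and Ltbp4 hold most of the rest.

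In laminin-positive cells the order of mean level ran Eln, Mfap4, Ltbp4, Emilin1, Loxl1, Efemp2, Fbn1, Fbn2, Fbln5 and Lox. The values of Loxl1 (169 to 179 FPKM) and Efemp2 (169 to 172 FPKM) overlapped there, and no other neighbours did. In laminin-negative cells the order ran Mfap4, Ltbp4, Eln, Efemp2, Fbn1, Loxl1, Fbn2, Emilin1, Fbln5 and Lox. Only Eln (216 to 285 FPKM) and Efemp2 (210.1 to 233 FPKM) overlapped as neighbours. Emilin1 thus held place 4 of 10 in laminin-positive and place 8 in laminin-negative cells.

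Relatives of the 10 genes went both ways, as did all tested genes, of which 26.6% were called higher and 26.3% lower. These rates are the background for each list below as well. Of 18 microfibril proteins and family relatives, 15 were tested, with 4 higher and 7 lower (median log2 difference −0.19). Of the 7, Fbln2 and Emilin2 reached 1 FPKM only in laminin-negative cells, which fixed their direction, and the other 13 tested genes held 4 higher and 5 lower calls (median 0.02). Ltbp2, a latent TGF-beta binding protein that attaches to fibrillin and fibulin-5, had 79.5 and 73.8 FPKM in laminin-positive and 1.79 and 1.68 FPKM in laminin-negative libraries (log2 difference 4.83, SE 0.09, limma adjusted p = 5.78e-11). Fbln7, another fibulin, was higher too, at 52.9 ± 0.425 FPKM in laminin-positive and 11.3 ± 0.175 FPKM in laminin-negative cells (SD, n = 2). Mfap5, a fibrillin-binding microfibril protein, had 2.18 and 1.14 FPKM in laminin-positive and 99.3 and 105 FPKM in laminin-negative libraries (log2 difference −5.31, SE 0.15, limma adjusted p = 7.18e-10). Ltbp2 and Mfap5 thus marked opposite populations, each at no more than 2.18 FPKM in the one where it was low.

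Its relative Mfap2 did not pass the test, at 251 ± 14.6 FPKM in laminin-positive and 247 ± 9.04 FPKM in laminin-negative cells (limma adjusted p = 0.832). Efemp1, the fibulin-3 gene, fell to 11.0 ± 0.0599 FPKM in laminin-positive cells, against 141 ± 13.5 FPKM in laminin-negative cells. Fbln2 had 0.455 and 0.178 FPKM in laminin-positive and 10.2 and 10.3 FPKM in laminin-negative libraries. Emilin2 differed from Emilin1 in direction, with 0.307 and 0.343 FPKM in laminin-positive and 6.96 and 6.74 FPKM in laminin-negative libraries. Loxl2, a lysyl oxidase relative that acts on collagen IV, fell to 7.75 ± 0.646 FPKM in laminin-positive cells, against 43.0 ± 4.43 FPKM in laminin-negative cells, so the crosslinking family was also split. The 3 that stayed below the filter were Emilin3, Mmrn1 and Mmrn2.

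ADAMTS and ADAMTS-like proteins, several of which bind fibrillin, were higher in 5 and lower in 3 of 8 tested cases of 9 listed (median log2 difference 0.52). Adamtsl5 and Adamts19 reached 1 FPKM only in laminin-negative cells, which fixed their direction. The other 6 tested genes held 5 higher and 1 lower calls (median 1.02). Adamtsl2 had 61.5 and 57.6 FPKM in laminin-positive and 6.39 and 6.47 FPKM in laminin-negative libraries (log2 difference 3.03, SE 0.08, limma adjusted p = 4.81e-10). Thsd4, whose product, ADAMTSL6, binds fibrillin-1, was at 3.98 ± 0.0113 FPKM in laminin-positive and 0.960 ± 0.186 FPKM in laminin-negative cells. Adamtsl5 (0.462 ± 0.309 against 7.93 ± 0.205 FPKM) and Adamts19 (0.577 ± 0.0444 against 7.56 ± 1.82 FPKM) were lower in laminin-positive cells. Without laminin-negative replicate 1 or 2 each of these last genes reached 1 FPKM in a single library and was not tested, which left 1 lower call.

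Integrin subunits of receptors for fibrillin and fibulin were higher in 6 of 8 tested cases of 9 listed and lower in 0 by limma (median log2 difference 0.62), and 0 were lower at an unadjusted p under 0.05 as well. Itga8, which pairs with the beta 1 subunit in an RGD-binding receptor of smooth muscle, had 32.3 and 34.2 FPKM in laminin-positive and 0.610 and 0.708 FPKM in laminin-negative libraries (log2 difference 4.37, SE 0.10, limma adjusted p = 1.67e-10). Itgb5, a partner of the alpha V subunit, was at 17.5 ± 0.611 FPKM in laminin-positive and 4.98 ± 0.824 FPKM in laminin-negative cells, and Itgav itself at 39.3 ± 2.44 against 22.9 ± 0.954 FPKM. Itga8 reached 1 FPKM only in laminin-positive cells, which fixed its direction, and without it 5 of 7 were higher. The rate of higher calls over all tested genes was 26.6%. The fit with no shared variance called 4 of the 8 subunits higher. Itga9 and Itgb8 did not pass the test.

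Genes for tropoelastin handling, copper supply and propeptide cleavage were lower in 6 and higher in 1 of 12 tested genes with a row of their own, of 14 listed (median log2 difference −0.18). The elastin receptor component Glb1 shares its row with Tmppe and is left out of that count, since its level cannot be read on its own. Bmp1, the protease that frees active lysyl oxidase from its propeptide, was at 94.2 ± 0.00523 FPKM in laminin-positive and 131 ± 4.73 FPKM in laminin-negative cells (log2 difference −0.47, SE 0.07, limma adjusted p = 2.30e-04). Pcolce, which enhances the action of that protease on procollagen, fell to 177 ± 9.88 FPKM in laminin-positive cells, against 516 ± 15.5 FPKM in laminin-negative cells. Tll1, a Bmp1 relative, was at 0.0218 ± 0.00309 FPKM in laminin-positive and 1.92 ± 0.205 FPKM in laminin-negative cells, which alone carried it past the filter. The direction of its call, 1 of the 6 lower ones, was thus fixed by the filter. The higher gene was Slc2a10, the transporter mutated in arterial tortuosity syndrome in man (9.95 ± 0.462 against 5.38 ± 0.518 FPKM), a call that the fit with no shared variance ended. The copper pump Atp7a, which supplies lysyl oxidases, did not pass the test, at 7.67 ± 0.397 FPKM in laminin-positive and 8.33 ± 0.0215 FPKM in laminin-negative cells.

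Proteases that degrade elastin and their inhibitors were higher in 3 and lower in 3 of 8 tested cases of 14 listed (median log2 difference −0.12). Timp3, the matrix-bound inhibitor, had 227 and 253 FPKM in laminin-positive and 38.4 and 36.7 FPKM in laminin-negative libraries (log2 difference 2.64, SE 0.08, limma adjusted p = 8.43e-10). Timp1 went the other way, at 28.7 ± 0.839 FPKM in laminin-positive and 60.0 ± 3.82 FPKM in laminin-negative cells, and so did the membrane protease gene Mmp14, at 171 ± 0.341 against 234 ± 2.93 FPKM. Mmp2, a gelatinase that also cleaves elastin, was higher, at 216 ± 7.96 FPKM in laminin-positive and 101 ± 2.64 FPKM in laminin-negative cells. The cathepsin gene Ctss was at 3.11 ± 0.888 against 0.464 ± 0.332 FPKM, beside macrophage markers that were higher in the same libraries, and its link to them was not tested. Ctss reached 1 FPKM only in laminin-positive cells, which fixed its direction. The other 7 tested genes held 2 higher and 3 lower calls (median log2 difference −0.16). The call of Ctss did not hold in the fit with no shared variance. The elastase genes Mmp7, Mmp12 and Elane were listed at 0 in every library.

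TGF-beta ligands, which latent binding proteins such as that of Ltbp4 regulate, and TGF-beta receptors were higher in 3 and lower in 2 of 7 cases (median log2 difference 0.02). Tgfb1 was at 17.0 ± 1.12 FPKM in laminin-positive and 8.01 ± 0.814 FPKM in laminin-negative cells, and the receptor gene Tgfbr1 at 15.0 ± 0.910 against 6.78 ± 0.252 FPKM. Tgfb2 fell to 5.87 ± 0.408 FPKM in laminin-positive cells, against 10.5 ± 0.979 FPKM in laminin-negative cells, and Tgfbr2 to 20.0 ± 0.359 FPKM, against 33.5 ± 0.699 FPKM. The remaining higher call was Tgfb3 (16.8 ± 0.741 against 13.0 ± 2.61 FPKM, limma adjusted p = 0.0296), and Tgfbr3 and Eng did not pass the test. Ligands and receptors thus each held calls in both directions. Over all tested genes 26.6% were called higher and 26.3% lower, so such a split is common here. The calls of Tgfb1, Tgfb2 and Tgfb3 did not hold in the fit with no shared variance, so only the receptors kept calls in both directions there. The call of Tgfb3 was also lost without the filter (limma adjusted p = 0.107) and without the intensity trend (0.0517). Its log2 difference ran from 0.16 to 0.54 when single libraries were left out.

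**Figure D4:**
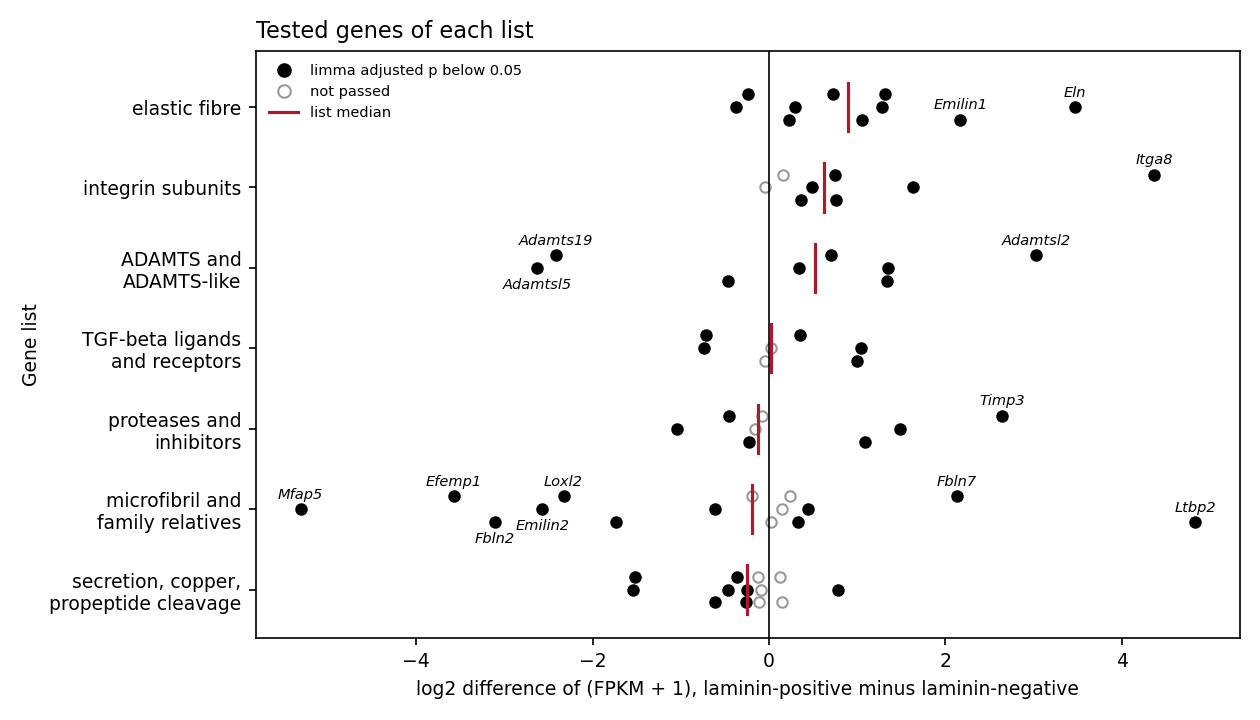
Differences in log2(FPKM + 1), laminin-positive minus laminin-negative, for the tested genes of the elastic fibre set and of 6 lists of related genes. Filled points passed limma at an adjusted p below 0.05, open points did not, and red lines are list medians. The elastic fibre median is 0.89, and the widest spread, Mfap5 at −5.31 to Ltbp2 at 4.83, is among the relatives. The handling and copper list has a median of −0.25 with the row that Glb1 shares with Tmppe, and −0.18 without it.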

How the data were processed

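RNA of the sorted cells was purified on RNeasy micro columns and turned into strand-marking NEBNext Ultra Directional libraries, per the labels. The authors deposited FPKM per library, per the file headers, and Cufflinks 2.2.1 and TopHat2 2.1.1 are listed, with no step assigned, in the submitters' processing notes. Build, gene models, strand option and fragment numbers used by the authors are not given here, so depth is unknown and precision rests on the spread between samples. Of 21203 loci with a unique symbol, 99.63% overlapped the GENCODE M21 gene of that symbol, so its GRCm38 coordinates are used. Without a strand setting, reads of antisense neighbours that overlap Eln, Fbn1, Fbn2, Efemp2, Lox and Mfap4 cannot be told apart from theirs. FPKM summed to 491475 to 548986 per library.

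Genes with at least 1 FPKM in at least 2 libraries were tested on log2(FPKM + 1) with limma 3.58.1 (R 4.3.3), with an intensity trend, two-sided, adjusted by Benjamini-Hochberg, at a threshold of 0.05. The prior degrees of freedom had a median of 8.21. The script was tested on simulated data. Adgre1 was matched by its older symbol Emr1. Every one of the 10 genes is named, and from each related list at least the 2 called genes with the largest differences in each direction. Genes and lists were chosen with earlier results of these data known.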

Additional observations from a re-analysis of the deposited data

How the results depend on the processing

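Over 11 alternatives, none of 69 genes changed a called direction where it was tested. The 69 are the 10 and the tested genes of the 6 related lists, with the row that Glb1 shares with Tmppe. Without a laminin-negative library Fbln2, Emilin2, Adamts19, Adamtsl5 and Tll1 were not tested, nor were Ctss and Itga8 without a laminin-positive library. These genes could not change direction there. Dropping the filter, the intensity trend or shared variance, or adding the replicate block, leaves each estimate as it was. Only the other alternatives could thus change a direction. Eln, Emilin1, Fbln5 and Lox passed under all 11. Loxl1 and Fbn2 missed the threshold only when limma shared no variance across genes (adjusted p = 0.0501 and 0.0585, their highest), as did Efemp2 (0.10). That alternative called 4 of the 10 higher and 0 lower (0.284 for Fbn1), and of all genes 1346 higher and 1211 lower. It called 2 relatives, 3 ADAMTS genes, 4 integrin subunits, 2 proteases or inhibitors, 0 handling and copper genes and 1 TGF-beta gene higher. It called 6 relatives, 2 ADAMTS genes, 0 integrin subunits, 2 proteases or inhibitors, 3 handling and copper genes and 1 TGF-beta gene lower. Of the 10, 1 was called lower without the filter, without the intensity trend, with equal FPKM sums and with quantile normalization, since Fbn1 lost its call. Without the filter 6 were called higher, since Ltbp4 and Mfap4 lost theirs, and without the trend 7, since Ltbp4 did. Leaving out a library gave 1 to 2 lower and 6 to 8 higher of the 10, and 1 to 3 lower ADAMTS genes, where the lone library is assumed to vary like the others. Equal FPKM sums (without the ribosomal row Rn45s) shifted the median of all tested genes to 0.116, called 2 handling and copper genes higher and made 64.3% of all calls higher, against 50.3%. The replicate block called 6 of the 10 higher and 2 lower, with Ltbp4 (0.110) and Mfap4 (0.0767) lost, and 3376 and 3343 of all genes. The numbers are not said to pair samples, and same-numbered libraries deviated from their group means with a correlation of 0.008 across genes. The cause of other lost calls was not tested.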
